A study of Homo sapiens with 24 samples.

Results

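LOC131873 is an older symbol of COL6A6, the gene for a chain of type VI collagen, and 1 named probe among the 43291 on each array carried this symbol. It was chosen by its measured levels, far higher in FOXP1 cells of CHP-212 and lower on the arrays labelled FOXP1 of SK-N-BE(2), so these differences are described without a test. The study asked how expression differs between neuroblastoma cells made to express the transcription factor FOXP1 and cells made to express green fluorescent protein (GFP). It profiled 3 established human neuroblastoma lines, SK-N-BE(2), IMR-32 and CHP-212, on 24 one-colour 44K oligonucleotide arrays. In each line a polyclonal culture carrying a doxycycline-inducible retroviral RevTet-On FOXP1 construct was set against a polyclonal culture carrying the same system with GFP, and both were sampled at 0, 12, 24 and 72 h of induction. The study names leakage of the inducible promoter as the reason for comparing with GFP cells. The 4 arrays of a group were time points of 1 culture. Each p-value for FOXP1 against GFP arrays therefore measures the spread between those time points and not between independent cultures. Tests between 2 times rest instead on the spread of the change over the cultures. Fewer cells with a transcript and less transcript per cell cannot be told apart in these bulk samples.

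Type VI collagen forms beaded microfibrils in the matrix around cells, close to basement membranes, and links that matrix to receptors on the cell surface. Its chains are encoded by several genes, and the chain encoded by COL6A6 is one of the long chains related to that of COL6A3. FOXP1 is a forkhead transcription factor that can repress or activate its target genes.

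The study's supplementary list of changed probes gave the symbol LOC131873. The RefSeq annotation lists it through gene ID 131873 as COL6A6, a gene on chromosome 3, where FOXP1 also lies. No other named probe carried a symbol of the same gene, and most probes had no symbol. The sequence of the probe was not held, so its match to COL6A6 was not checked. This probe differed between FOXP1 and GFP arrays in each line, while the FOXP1 probe did so only in IMR-32 and CHP-212, as given below. The 250 bases before the annotated start of COL6A6 are shown as a description, and no link to FOXP1 was tested. They lie at chr3:130516927-130517176 on the plus strand of GRCh38.p14, come from RefSeq, and are printed with the GC boxes (GGGCGG) in capitals.
COL6A6 promoter: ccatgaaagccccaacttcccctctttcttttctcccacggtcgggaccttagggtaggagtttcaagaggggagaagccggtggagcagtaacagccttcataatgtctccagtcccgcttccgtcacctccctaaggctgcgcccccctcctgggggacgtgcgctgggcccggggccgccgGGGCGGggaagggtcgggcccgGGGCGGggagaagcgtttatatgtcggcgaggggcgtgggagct
The window held 65.6% G and C and 19 CG dinucleotides. The medians over 27305 promoter windows of the same length were 58.0% and 11, and 69.5% of the windows had a lower G and C share. Both strands were searched for 4 motifs. The GC box occurred at 2 places, 66 and 44 bases before the start, and 42.3% of all windows held at least one. The TATA letters TATAAA occurred at 1 place on the opposite strand, 29 bases before the start, and in 11.1% of windows. Neither the forkhead core TGTTTAC, held by 2.98% of windows, nor the E-box CACGTG, held by 6.49%, was in this window. A match is a description of letters, and a missing match says only that these letters are absent from these bases.

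The transgene was checked first, through the FOXP1 probe. Levels are given as the log2 of the processed signal minus the log2 of the 75th percentile of the same array, so that 0 is the 75th percentile. The FOXP1 level was 1.20 ± 0.14 (SD, n = 4) in IMR-32 GFP cells and 2.60 ± 0.16 in IMR-32 FOXP1 cells, a difference of 1.40 (SE 0.15, limma adjusted p = 0.000110). It was 1.03 ± 0.18 in CHP-212 GFP cells and 3.01 ± 0.20 in CHP-212 FOXP1 cells, a difference of 1.98 (SE 0.17, limma adjusted p = 0.000446). In SK-N-BE(2) the arrays labelled GFP had 2.99 ± 0.22 and the arrays labelled FOXP1 2.79 ± 0.15, a difference of −0.20 (SE 0.16, limma adjusted p = 0.910). The FOXP1 probe was thus higher on the FOXP1 arrays of IMR-32 and CHP-212, and not on those of SK-N-BE(2), and the FOXP1 level of the arrays labelled GFP in that line was not low as in the other GFP cultures. Both sets of SK-N-BE(2) arrays are therefore called by their labels throughout, each direction given for this line follows those labels, and whether they are right was not tested. The transgene itself was not separated from the cells' own transcript by this probe.

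LOC131873 was well above background, by the scanner software's own test, on 22 of the 24 arrays. In IMR-32 GFP cells its processed signals in order of time (0, 12, 24 and 72 h) were 11.2, 40.5, 4.43 and 17.5, and the last 2 arrays were not well above background. In IMR-32 FOXP1 cells the signal was 416, 424, 217 and 874 at the same times. The IMR-32 arrays therefore fell into a near-background GFP group and a clearly measured FOXP1 group, with no overlap.

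In CHP-212 GFP cells the LOC131873 signals in the same order were 82.9, 120, 53.3 and 38.6. In CHP-212 FOXP1 cells it was 2178, 4941, 4712 and 4268. Every FOXP1 array of CHP-212 was far above every GFP array of that line, and all 8 arrays were well above background. On the GFP arrays at 0 and 12 h, the lowest signals of any probe well above background were 69.5 and 90.0, so LOC131873 lay near that floor. In SK-N-BE(2) the order was the other way round. The arrays labelled GFP gave 3508, 3158, 2026 and 2909, and the arrays labelled FOXP1 gave 597, 585, 192 and 326. The 2 sets of SK-N-BE(2) arrays did not overlap either, and all 8 were well above background.

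On the scaled log2 level, IMR-32 GFP cells had −6.20, −5.40, −8.28 and −6.33 at 0, 12, 24 and 72 h, and IMR-32 FOXP1 cells −1.80, −1.84, −2.31 and −1.29. CHP-212 GFP cells had −4.18, −3.90, −4.30 and −4.55, and CHP-212 FOXP1 cells 2.45, 2.18, 2.11 and 2.16. The arrays labelled GFP of SK-N-BE(2) had 1.51, 1.45, 0.63 and 0.85, and those labelled FOXP1 −1.05, −1.44, −2.53 and −1.86. The groups of each line did not overlap on this scale either. At 0 h in CHP-212 the 75th percentile was 398 on the FOXP1 array and 1499 on the GFP array, so scaling widened that ratio.

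**Figure D1:**
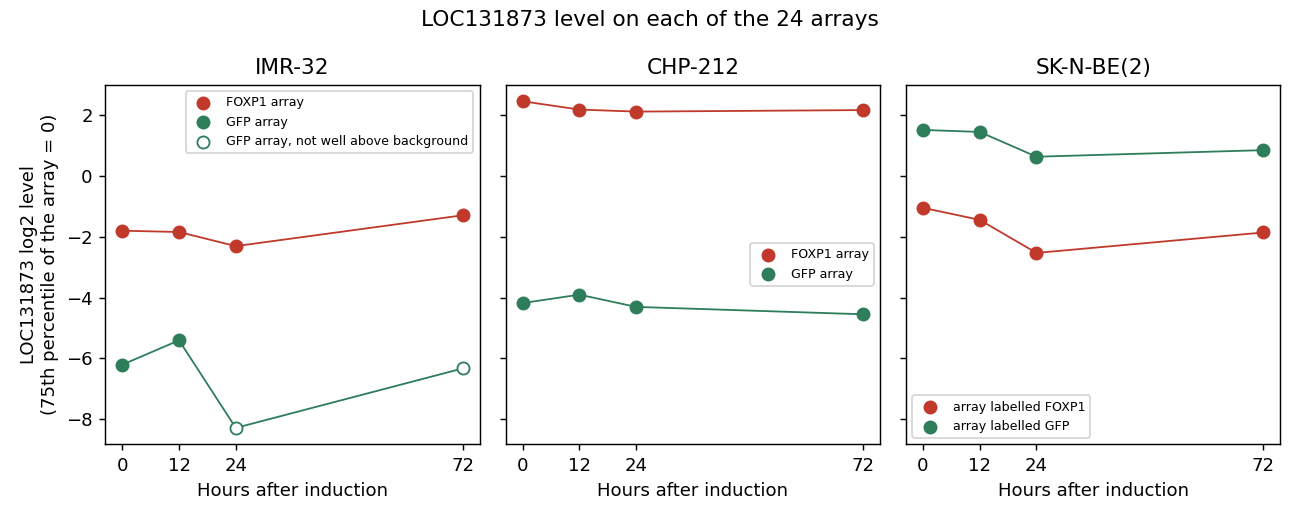
LOC131873 log2 level (75th percentile of the array = 0) against hours after induction, with 1 point per array and 1 panel per line; open points were not well above background. FOXP1 arrays sit above GFP arrays at each time in IMR-32 and CHP-212, and the arrays labelled FOXP1 of SK-N-BE(2), at −2.53 to −1.05, sit below its arrays labelled GFP.

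From lowest to highest, the mean LOC131873 levels (± SD, n = 4) were −6.55 ± 1.22 in IMR-32 GFP cells, −4.23 ± 0.27 in CHP-212 GFP cells, −1.81 ± 0.41 in IMR-32 FOXP1 cells, −1.72 ± 0.63 on the arrays labelled FOXP1 of SK-N-BE(2), 1.11 ± 0.44 on its arrays labelled GFP and 2.23 ± 0.15 in CHP-212 FOXP1 cells. The lowest mean rests on 2 of 4 arrays well above background. Neighbours in this order lay 2.32, 2.42, 0.09, 2.83 and 1.12 apart. The step of 0.09, between IMR-32 FOXP1 cells and the arrays labelled FOXP1 of SK-N-BE(2), was smaller than the SD of 0.63 and the arrays of both groups overlapped. The other 4 steps were larger than the larger SD of the pair, and those groups did not overlap. The narrowest gap, 0.60, lay between the highest SK-N-BE(2) array labelled GFP and the lowest CHP-212 FOXP1 array.

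The LOC131873 level varied 1.27-fold over the 4 time points of CHP-212 FOXP1 cells, 1.56-fold in CHP-212 GFP cells, 1.84-fold on the arrays labelled GFP of SK-N-BE(2), 2.02-fold in IMR-32 FOXP1 cells and 2.79-fold on the SK-N-BE(2) arrays labelled FOXP1. With normexp CHP-212 FOXP1 cells varied 1.20-fold and CHP-212 GFP cells 1.05-fold, so which culture varied least, and which most, depends on the background correction. In IMR-32 GFP cells it varied 7.35-fold, a range that includes both arrays not well above background, and 1.76-fold with normexp. The median spot intensity of those arrays was 43.5 and 57, over a local background of 28.5 and 29.

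Set beside the FOXP1 probe, the cultures showed only a partly similar order in LOC131873. The 2 cultures lowest in LOC131873, IMR-32 GFP and CHP-212 GFP, were also the 2 lowest in FOXP1, but in reversed order, with single arrays between 0.77 and 1.39. The other 4 cultures had FOXP1 levels between 2.38 and 3.30, and CHP-212 FOXP1 cells, highest in LOC131873, had the highest mean FOXP1 level, within the spread of the SK-N-BE(2) arrays labelled GFP. Those arrays had the second highest LOC131873 level. The FOXP1 levels fall into separate clusters with nothing between them. Within cultures the correlation of LOC131873 with FOXP1 was −0.04. Levels of CHP-212 and SK-N-BE(2) chose the gene, so no relation to the FOXP1 level is read from this order.

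At 0 h the LOC131873 level of CHP-212 was already 99.1-fold higher on the FOXP1 array than on the GFP array. The later arrays gave ratios of 67.8-fold, 85.5-fold and 104.8-fold in order of time. GFP signals at 0 and 12 h were near the floor, so those ratios are not exact sizes. The mean log2 difference was 6.46, which is 88.1-fold. Each slide carried 2 FOXP1 and 2 GFP arrays of 1 line, either 0 and 12 h or 24 and 72 h. The difference was 6.36 within the 0 and 12 h slide, 6.56 within the other, and 6.46 with the slide as a block. The 0 and 12 h slide had 53.9 to 60.4% of probes well above background, against 72.8 to 82.3% on the other slides of the series, and the LOC131873 difference was about as large on either CHP-212 slide. With normexp background correction it was 5.46.

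In SK-N-BE(2), LOC131873 was lower on the array labelled FOXP1 at each of the 4 times, with ratios of 5.90-fold, 7.41-fold, 8.95-fold and 6.53-fold in order of time. The mean log2 difference was −2.83, which is 7.11-fold lower, with −2.72 within the 0 and 12 h slide, −2.93 within the 24 and 72 h slide and −2.83 with the slide as a block. The FOXP1 probe on the same pairs of arrays had ratios of 0.978, 0.724, 0.846 and 0.949. The large LOC131873 difference in this line thus stood beside FOXP1 ratios a little under 1, and their relation was not tested.

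The IMR-32 arrays were not used to choose LOC131873 for its opposite directions, and their difference was tested. The LOC131873 level was higher in FOXP1 cells at 4 of 4 times, with a log2 difference of 4.74 (SE 0.52, limma adjusted p = 0.000125). Only 2 of 4 GFP arrays measured it, so 4.74 is not an exact size, and bounds for the other times are given below. By an exact two-sided permutation test of the 4 FOXP1 against the 4 GFP arrays p was 0.0286, the smallest that 70 arrangements can give. LOC131873 was among the 12.2% of tested probes (4122 of 33806) called in IMR-32, where a call needs an adjusted p under 0.05 and a change of at least 2-fold. The symbol came from the study's supplementary list of probes that changed on these arrays, so a named probe was more likely than others to be called.

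Over the time course of IMR-32 the FOXP1 array was 21.2-fold above the GFP array at 0 h and 11.8-fold at 12 h. On the processed signal it was at least 14.9-fold higher at 24 h and at least 31.5-fold at 72 h, where the GFP array was not well above background. These bounds replace the GFP level by the higher of the probe's own and the lowest level among probes well above background on that array. They do not hold with normexp, where the differences were smaller. Its FOXP1 and GFP levels were −0.93 and −4.35 at 24 h, and −1.07 and −4.12 at 72 h. Bounds given below for other genes are on the processed signal too. Within the 0 and 12 h slide, where all 4 arrays measured the probe, the difference was 3.98 or 15.8-fold (limma adjusted p = 0.00178). Within the 24 and 72 h slide it was at least 21.7-fold on the processed signal, with neither GFP array well above background and so no p given. With the slide as a block it was 4.74 (SE 0.49). With normexp it was 2.79 (limma adjusted p = 0.000316), still called.

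**Figure D2:**
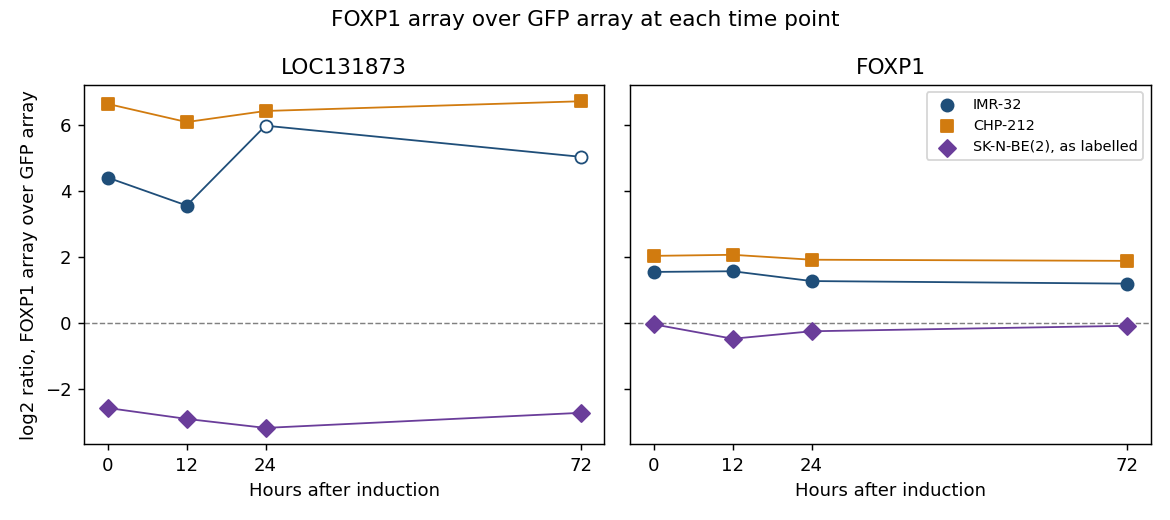
log2 ratio of the FOXP1 array over the GFP array of the same line and time, for LOC131873 on the left and FOXP1 on the right, against hours after induction; open circles have a GFP array not well above background. LOC131873 ratios are above 0 in IMR-32 and CHP-212 and between −3.16 and −2.56 in SK-N-BE(2), where the FOXP1 ratio lies between −0.47 and −0.03.

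Time was not used to choose the gene, so its effect on LOC131873 could be tested over the 6 cultures. From 0 to 12 h the level changed by 0.80 in IMR-32 GFP cells, −0.04 in IMR-32 FOXP1 cells, 0.27 in CHP-212 GFP cells, −0.27 in CHP-212 FOXP1 cells, −0.07 on the arrays labelled GFP of SK-N-BE(2) and −0.40 on those labelled FOXP1. It was higher at 12 h in 2 of 6 cultures, with a mean of 0.05 (SE 0.17, limma adjusted p = 0.945; exact sign-flip permutation p = 0.844). The gene was not among the 1.51% of probes (498 of 33015) called between these times. Without the IMR-32 GFP culture the mean was −0.10, and with normexp −0.18, so its direction was not settled. The 6 cultures are not independent, because FOXP1 and GFP arrays of a line share their slide. With both cultures of a line averaged first, an alternative chosen after seeing the data, the limma adjusted p over 3 lines was 0.981.

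From 24 to 72 h LOC131873 changed by 1.96, 1.01, −0.24, 0.05, 0.22 and 0.67 in the same order of cultures, and was higher in 5 of 6. The first of these lies between 2 arrays not well above background, and without that culture the mean was 0.34. Over all 6 the mean of 0.61 (SE 0.27) did not pass the limma test (adjusted p = 0.548; exact sign-flip permutation p = 0.125, where 64 arrangements allow 0.0312 at the least). No probe did: 0% of 34037 probes were called by limma, and 3116 had an unadjusted p under 0.05. With normexp the mean was 0.16, and over 3 lines, chosen after seeing the data, the limma adjusted p was 0.926. LOC131873 was lowest at 24 h in 5 of 6 cultures, though the 24 h array of IMR-32 GFP cells was not well above background. The 24 and 72 h arrays share a slide that differs from that of 0 and 12 h, so the step from 12 to 24 h cannot be told apart from the slide.

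The LOC131873 ratio itself had no slope that passed the test. Per 72 h, the log2 ratio of FOXP1 over GFP changed by 0.87 in IMR-32 (SE 0.95, limma adjusted p = 0.897), by 0.30 in CHP-212 (SE 0.40, limma adjusted p = 0.765) and by 0.0042 in SK-N-BE(2) (SE 0.39, limma adjusted p = 0.998). With 4 ratios per line only steep slopes could pass, and 2 of the 4 in IMR-32 have a GFP array not well above background. In each line 0% of probes were called by limma, while 2140, 1726 and 2146 had an unadjusted p under 0.05. Leaving out 72 h turned the slope to −0.64 for CHP-212 and to −1.81 for SK-N-BE(2), and raised it to 4.71 for IMR-32.

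Calls in CHP-212 covered 3.03% of probes (997 of 32958) and in SK-N-BE(2) 0.720% (245 of 34044). Of 31554 probes tested in both lines, 37 were called in both, which is 3.71% of the CHP-212 calls and 15.1% of the SK-N-BE(2) calls. They went the same way for 19 probes and opposite ways for 18. Of the 37, 5 had no array well above background in 1 group of SK-N-BE(2), so they were fitted there only through the other group. With every array well above background in both lines, 22 were called in both. These counts move with the fit. Without single arrays the calls were 620 to 1073 in CHP-212 and 127 to 213 in SK-N-BE(2), and the probes called in both 18 to 38. With the time block in both lines, chosen for this overlap after seeing the data like the other alternatives here, 71 were called in both, with normexp 20, at 12, 24 and 72 h only 8, and fits on 2 time points shared none. LOC131873 was 1 of the 13 probes, 0.0412% of those tested in both, that were higher in CHP-212 FOXP1 cells and lower on the arrays labelled FOXP1 of SK-N-BE(2). Of these 13, 3 had no array labelled FOXP1 of SK-N-BE(2) well above background. Without single arrays such probes numbered 5 to 13, with the time block 19, and with every array well above background 7. Their pattern is the one that chose LOC131873, and nothing is read from its membership.

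Of the other 12 probes, 6 had a symbol, and 5 of these are described. TM4SF4, a membrane protein with several transmembrane stretches, differed by 3.23 in CHP-212, where 2 of 4 GFP arrays measured it, and was at least 1.89-fold lower on the arrays labelled FOXP1 of SK-N-BE(2), none of which was well above background. EMILIN2, a glycoprotein of elastic matrix fibres, differed by 3.22 in CHP-212, with 2 of 4 GFP arrays well above background, and by −2.18 in SK-N-BE(2). PLCL1, a phospholipase C relative without catalytic activity, differed by 2.03 and −1.56, with 2 of 4 arrays measured in the lower group of each line. TPBG, a cell surface glycoprotein, differed by 1.95 and −1.31. ST6GAL2, a sialyltransferase, differed by 1.14 in CHP-212 and was at least 1.74-fold lower on the arrays labelled FOXP1 of SK-N-BE(2), where none was well above background. In IMR-32, LOC131873 was 1 of 6 of the 13 probes called higher in FOXP1 cells, 5 were called lower, 1 was not called and 1 was not tested, beside 2142 higher and 1980 lower among all 33806 probes (12.2%).

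**Figure D3:**
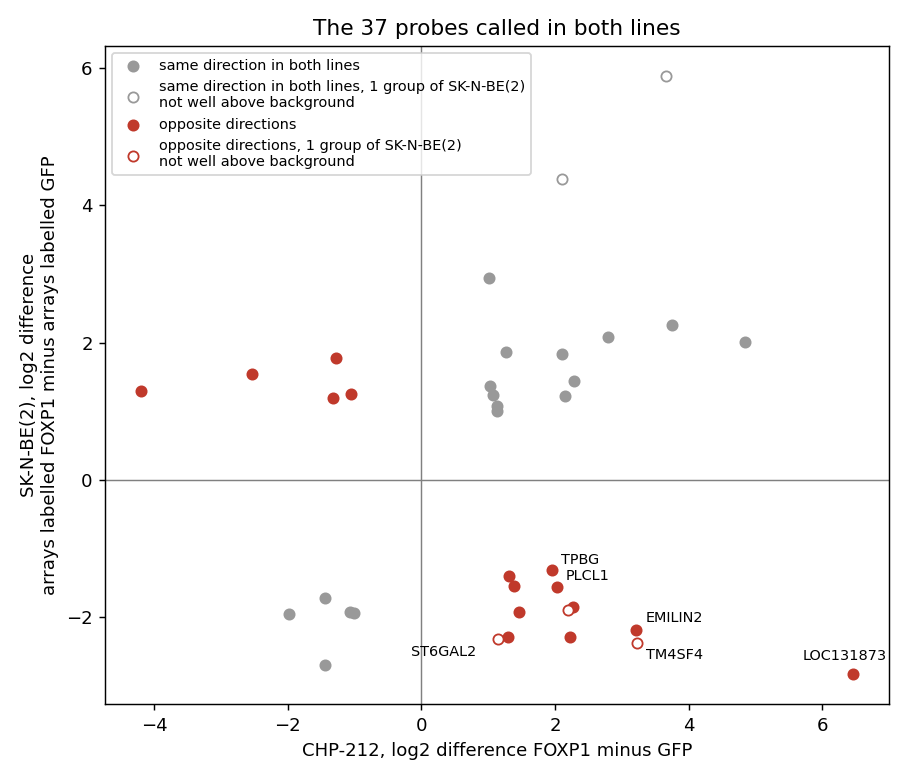
log2 difference FOXP1 minus GFP in CHP-212 (horizontal) against SK-N-BE(2), arrays labelled FOXP1 minus arrays labelled GFP (vertical), for the 37 probes called in both lines, 1 point per probe. Open points, 5 in all and 3 of the 13 at the lower right, have 1 group of SK-N-BE(2) with no array well above background. LOC131873 is at 6.46 and −2.83, and 5 other probes there have their symbols beside their points.

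LOC131873 was the only type VI chain besides COL6A2 with a named probe, so 1 of the 6 other genes of that list could be read. COL6A2, the gene for a chain of the common type VI heterotrimer, differed by 0.07 in IMR-32 (SE 0.29, limma adjusted p = 0.908), 0.75 in CHP-212 (SE 0.18, limma adjusted p = 0.0545) and 1.62 in SK-N-BE(2) (SE 0.38, limma adjusted p = 0.145). It was called in 0 of 3 lines by limma, and its unadjusted p was under 0.05 everywhere but in IMR-32. With the time point as replicate block, which for these lists was chosen after seeing the data, it was called in SK-N-BE(2) (SE 0.14, limma adjusted p = 0.00971). There its value had the opposite sign to that of LOC131873, and the difference between the genes was not tested.

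LOC131873 also stood beside 15 named genes for other collagen chains. All of these names come from the list of changed probes, so their counts are not independent of these arrays. The calls over all probes were 12.2% for IMR-32, 3.03% for CHP-212 and 0.720% for SK-N-BE(2), and the counts of this list and those below stand beside these shares. In IMR-32, where LOC131873 was higher, 9 were tested, 1 was called higher and 7 lower, with a median log2 difference of −2.23 against −0.01 over all probes. COL16A1, a fibril-associated collagen, differed by −4.71 (limma adjusted p = 0.000257), COL13A1, a transmembrane collagen, by −3.55 with 2 of 4 FOXP1 arrays measured, COL8A2, of the short-chain network type, by −2.46, and COL12A1, also fibril-associated, by 3.03 with 1 of 4 GFP arrays measured. With normexp limma called 0 higher and 2 lower, COL16A1 and COL4A2, so the calls of COL13A1, COL8A2 and COL12A1 were lost, and 6 had an unadjusted p under 0.05. In CHP-212, 1 of 10 was called higher and none lower, with a median of 0.24 against 0.02. It was COL8A1, a short-chain collagen, at 2.40 (limma adjusted p = 0.00155). With normexp COL16A1 was also called higher in CHP-212, at 1.25 (limma adjusted p = 0.0378). In SK-N-BE(2), where LOC131873 was lower, 11 were tested and none was called lower, with a median of 0.32 against −0.01. COL4A2, of basement membranes, was called higher at 1.64 (limma adjusted p = 0.00562). On the processed signal COL2A1, the cartilage fibril collagen, was at least 8.15-fold higher, with no array labelled GFP well above background. With normexp its log2 difference was 1.37, which is less than that bound. It could be fitted only through the arrays labelled FOXP1, so its call is not counted and no p is given.

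Genes that modify, process or cross-link collagen had 7 named members of 24. In IMR-32, 1 of 6 was called higher and 2 lower: P3H2, a prolyl hydroxylase, at 1.23, and the lysyl oxidases LOX at −1.79 and LOXL4 at −1.59, both lost with normexp. In CHP-212, 3 of 7 were called higher, namely P4HA3, a prolyl hydroxylase subunit, at 2.75 with 1 of 4 GFP arrays measured, LOXL2, a lysyl oxidase, at 1.67, and P3H2 at 1.52. In SK-N-BE(2) limma called 0 of 4, and 1 had an unadjusted p under 0.05. Medians were −0.39, 0.94 and 0.51, against −0.01, 0.02 and −0.01 over all probes.

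Receptors and matrix partners of type VI collagen had 10 named members of 22. In IMR-32, beside the higher LOC131873 level, 3 of 10 were called higher and 3 lower. ITGA1, an integrin subunit that binds collagen, differed by 2.28, ITGA3, a laminin-binding integrin subunit, by 1.73, MATN4, a matrilin, by −1.95, and ANTXR1, a receptor with a collagen-binding domain, by −1.82. The calls of ITGA3, which 2 of 4 GFP arrays measured, of MATN4 and of NID2, a basement membrane nidogen that 1 of 4 FOXP1 arrays measured, were lost with normexp. In CHP-212, 2 of 10 were called higher and 1 lower, with ITGA11, a collagen-binding integrin subunit, at 1.58, ANTXR2, a receptor related to ANTXR1, at 1.39 and DCN, the proteoglycan decorin, at −1.46. ANTXR2 was measured on 2 of 4 arrays of each group and lost its call with normexp. In SK-N-BE(2) limma called 0 of 9, and 2 had an unadjusted p under 0.05; with the time block NID2 was called lower there, at −2.15 (limma adjusted p = 0.0252). Medians were −0.07, 0.14 and 0.12.

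Of 12 laminin genes, 3 were named. LAMA4 was called lower in IMR-32 at −1.14, not with normexp, and LAMC3 lower in CHP-212 at −1.91, out of 2 tested in each, and limma called 0 of 3 in SK-N-BE(2), where 1 had an unadjusted p under 0.05. Medians were −0.66, −0.45 and 0.43. Among the genes of these lists the time block changed 1 further call, that of COL7A1 in CHP-212, then called higher at 1.12.

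**Figure D4:**
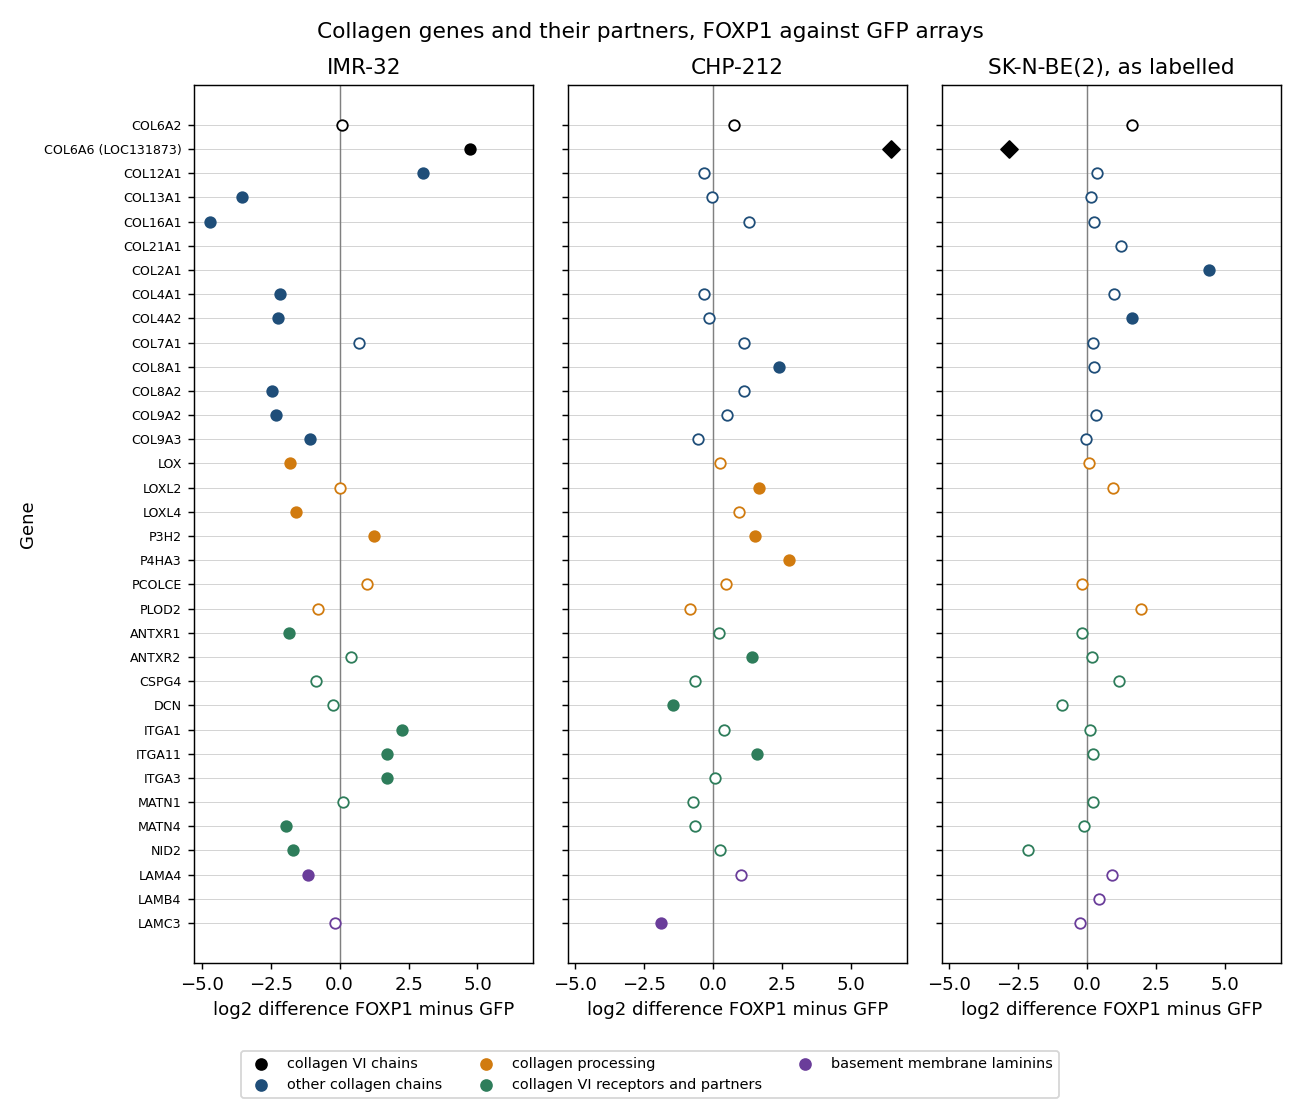
log2 difference FOXP1 minus GFP for each named gene of the collagen lists, with 1 panel per line (arrays as labelled in SK-N-BE(2)), colours for lists, filled circles for called genes and open circles for genes not called; LOC131873 (COL6A6) is a diamond for CHP-212 and SK-N-BE(2), where it is described with no test given, and a filled circle for IMR-32, where it was called. LOC131873 lies at 4.74, 6.46 and −2.83, and among the other IMR-32 genes COL16A1 is lowest at −4.71.

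Of the 10 protein-coding genes nearest to COL6A6, 5 on each side, 2 had a named probe. PLXND1, a semaphorin receptor, differed by −1.77 in IMR-32 (limma adjusted p = 0.000862), −0.91 in CHP-212, with 2 of 4 arrays of each group measured, and 0.11 in SK-N-BE(2). NEK11, a kinase, differed by −1.90 in IMR-32 (limma adjusted p = 0.000391), where 1 of 4 FOXP1 arrays measured it, by 0.29 in CHP-212 and by −0.09 in SK-N-BE(2). Both were called in IMR-32 in the direction opposite to LOC131873. With normexp both calls were lost, and the sign turned for NEK11 in IMR-32 and SK-N-BE(2) and for PLXND1 in CHP-212. Neither was called in the other lines.

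The levels of LOC131873 over the 24 arrays were also set against those of 2386 named genes well above background on at least 12 arrays. The arrays come from 6 cultures, so a correlation here mostly repeats differences between cultures. As deviations from its mean over all arrays, LOC131873 had −4.72 in IMR-32 GFP cells, −2.40 in CHP-212 GFP cells, 0.02 in IMR-32 FOXP1 cells, 0.11 on the arrays labelled FOXP1 of SK-N-BE(2), 2.94 on those labelled GFP and 4.06 in CHP-212 FOXP1 cells. The 10 genes with the highest Pearson correlation, 0.793 (SOX4) to 0.875 (TPM4), were TPM4 and TPM1, which encode actin-binding tropomyosins, FOXP1, the neurofilament gene NEFL, FILIP1L, FGFBP2, which encodes a fibroblast growth factor binding protein, the protocadherin gene PCDHB11, ANXA2R, the neuronal pentraxin gene NPTX1, and SOX4, which encodes a transcription factor. By Spearman correlation 8 of these 10 were again among the highest 10, and by the 6 culture means 5. Within cultures the correlations ran from −0.225 to 0.470, and none of the 10 was among the highest 10 there.

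The 5 genes most opposite to LOC131873 (−0.888 to −0.832) were BMAL2, a circadian transcription factor gene, SYT17, a synaptotagmin gene, SH3GL3, an endophilin gene, SHISA3 and RASGRP2, which encodes an exchange factor for small GTPases. SYT17, picked here for running against LOC131873 and so described without a test, differed by −4.20 in CHP-212, with 2 of 4 FOXP1 arrays measured, and by 1.30 in SK-N-BE(2). The 10 most alike genes were picked on these same arrays, so their differences are described here without a test. They ran from 0.69 (PCDHB11) to 3.74 (ANXA2R) in CHP-212. In SK-N-BE(2) they ran from −0.57 (FGFBP2) to 0.17 (PCDHB11). In IMR-32, where NPTX1 had no value, they ran from 0.09 (ANXA2R) to 2.74 (PCDHB11).

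**Figure D5:**
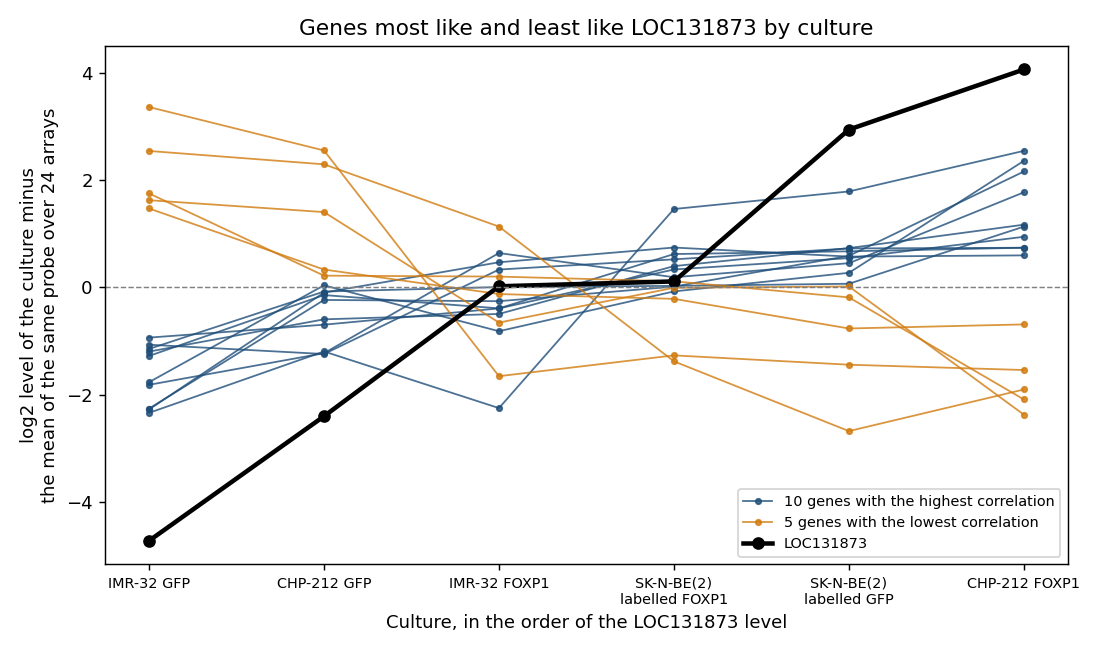
log2 level of each culture minus the probe's mean over the 24 arrays, for LOC131873 (black), the 10 genes with the highest (blue) and the 5 with the lowest (orange) correlation; cultures are in the order of their LOC131873 level. LOC131873 runs from −4.72 to 4.06, a wider range than any of the 15 genes beside it.

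Markers of cell states were read beside LOC131873, again only where named. Of 11 markers of sympathetic, adrenergic neuroblasts, TH and DBH, enzymes of catecholamine synthesis, and STMN2, a neuronal microtubule regulator, were measured. All 3 were called higher in IMR-32 FOXP1 cells, at 3.33, 3.85 and 1.66. In CHP-212 DBH was called at 2.07, with 2 of 4 GFP arrays and 3 of 4 FOXP1 arrays measured, and not with normexp, quantile normalization or the time block, and limma called 0 of 3 in SK-N-BE(2), where 1 had an unadjusted p under 0.05. Of 9 mesenchymal markers FOSL2, an AP-1 factor gene, was called higher in IMR-32 at 2.32 and PRRX1 was not tested. Of 8 fibroblast markers DCN was called lower in CHP-212 at −1.46, and none of 6 Schwann cell markers had a named probe. The 3 sympathetic markers measured thus moved with LOC131873 in IMR-32, as did FOSL2. In CHP-212, where LOC131873 differed most, TH at 0.23 and STMN2 at 0.39 were not called. The part of these markers in the result was not tested.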

How the data were processed

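Total RNA, labelled with Cy3, was hybridised to 24 one-colour Agilent arrays. Per the file headers, the authors extracted each spot with Feature Extraction 10.7.3.1, and the processed signal is a background-corrected intensity on a linear scale. The deposited files also hold the median spot intensity and local background intensity, and the authors' series table holds a quantile-normalized processed intensity, which matched the scanner files by rank on every array (sorted values differed by 0.088% between arrays; column medians were 156 to 157). Its scale is linear, and no direction or centring applies.

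Here each array's log2 processed signal was reduced by the log2 of its 75th percentile, with 311 outlier spots left out. The number of arrays limits the precision. Probes well above background on 4 of 8 arrays of a line, or 6 of 12 in the time comparisons, were fitted with limma 3.58.1 (lmFit, eBayes, Benjamini-Hochberg) in R 4.3.3. Python 3.11.15, numpy 2.4.6, pandas 2.3.3, scipy 1.17.1 and matplotlib 3.10.9 gave exact tests and plots. A run of the fits on simulated data is not used for any result here. FOXP1 and GFP arrays were not paired in the fits, after the study's methods. The labels give both the same time points, and within each line deviations from the group means correlated between arrays of 1 time (0.373 to 0.605 in IMR-32, 0.126 to 0.554 in CHP-212, 0.380 to 0.682 in SK-N-BE(2), over 33354 probes).

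Symbols came from the study's supplementary list, which named 3503 probes here, 3414 of them matched to RefSeq; 586 of its lines were not held, and other probes stay unnamed. Named were LOC131873, FOXP1, type VI chains, the 5 nearest genes on each side, up to 4 called members of each list with the largest differences per line, the 10 highest and 5 lowest correlations, and named probes called higher in CHP-212 and lower in SK-N-BE(2), of which 1 is not reported here. For a gene with several probes the brightest tested was used. The gene and the lists were chosen with earlier results of these data known. Alternatives were normexp (offset 50), quantile and median scaling, the series table, other filters, time and slide blocks, other time points, a joint fit, the methods' t-test, time tests over 3 lines, and leaving out arrays, cultures or times.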

Additional observations from a re-analysis of the deposited data

Results flagged for a closer look

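By the labels, LOC131873 differed between FOXP1 and GFP arrays in opposite directions in different lines. In CHP-212 each of the 4 FOXP1 arrays was above each GFP array, with a mean log2 difference of 6.46, and in SK-N-BE(2) each array labelled FOXP1 was below each array labelled GFP, with −2.83. This contrast chose the gene, and the difference between the lines was not tested. IMR-32, at 4.74, also opposed SK-N-BE(2), at −2.83, with every array of each line on its side; this difference was not tested either. In SK-N-BE(2) the arrays labelled FOXP1 had no higher FOXP1 level than those labelled GFP, and whether these labels are right was not tested. No array of any of the 6 cultures stood apart from the other 3 by Dixon's test in LOC131873 or FOXP1.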

How the results depend on the processing

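The LOC131873 difference in IMR-32 kept its direction and call under 22 of 22 alternatives. It was 2.79 with normexp and 4.17 to 5.13 when each array was left out. At 24 and 72 h only it was at least 21.7-fold on the processed signal, a call that rests on GFP arrays not well above background. Its adjusted p with the time point as replicate block was 7.65e-05 at the same 4.74. In CHP-212 the difference was 5.46 with normexp, 6.36 to 6.57 without single arrays, and moved by less than the SD elsewhere; in SK-N-BE(2) it lay between −3.05 and −2.56 in all 15 alternatives. With normexp, which here used the median spot intensity because the mean was not held, counts of called probes were 1454 in IMR-32 (925 higher, 529 lower, or 63.6% higher against 52.0%) and 602 in CHP-212 (454 higher, 148 lower, or 75.4% against 64.1%). The CHP-212 count was also 628 with every array well above background and 650 by the methods' t-test after Benjamini-Hochberg. Fits on 2 time points gave 514 at 24 and 72 h but only 9 at 0 and 12 h. Without single arrays the CHP-212 count was 620 to 1073 (620 without GFP at 72 h). The SK-N-BE(2) count of 245 fell to 7 with 0 and 12 h alone and to 0 with 24 and 72 h alone. It was 40 at 12, 24 and 72 h only, 121 by the methods' t-test after Benjamini-Hochberg and 537 unadjusted. Without single arrays it was 127 to 213 (127 without the array labelled FOXP1 at 12 h). With the time point as replicate block, which pairs arrays of a time, it was 477. In IMR-32, the line where LOC131873 was tested, it kept its call with the block. The IMR-32 count was 3937 to 4246 without single arrays. The difference from 0 to 12 h turned to −0.18 with normexp and ranged from −0.10 to 0.14 without single cultures; that from 24 to 72 h ranged from 0.34 to 0.78 and was 0.16 with normexp. Without single times the slopes ranged from 0.34 to 4.71 in IMR-32, −0.64 to 0.66 in CHP-212 and −1.81 to 0.35 in SK-N-BE(2), where they were −0.03 without 12 h and without 24 h, −0.0914 with quantile normalization and −0.0921 with the series table. None of these passed the test in any alternative. Apart from fewer probes or arrays where these were left out, the cause was not tested. The settings with 0 and 12 h or 24 and 72 h only, the time tests over 3 lines, the time block for the lists, and the alternatives for the overlap were chosen after seeing the data. A filter on every array left no LOC131873 value in IMR-32 or from 24 to 72 h. Signal over background limits LOC131873 in IMR-32 GFP cells, where 2 of 4 arrays were not well above background.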
